A study of Mus musculus with 6 samples.

Results

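Claudins, occludin and zonula occludens 1 were followed in mouse lung adenocarcinoma cell lines in which p53 can be switched back on. The genes were 8 claudins (Cldn1, Cldn2, Cldn3, Cldn4, Cldn6, Cldn7, Cldn12 and Cldn15), occludin (Ocln) and Tjp1, which encodes zonula occludens 1 (ZO-1). They were found by their symbol in the platform annotation, which gave 16 of the 22690 probe sets on the array to 9 of these 10 genes. Cldn12 was named by no probe set in the annotation used and was not analysed here. Of the 9, 7 passed the filter on low values and were among the 7906 genes tested. Cldn1 and Cldn15 fell below it and are given as levels, with a test of a Cldn1 probe set without the filter further on.

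The lines KPR4, KPR5 and KPR8, derived from adenocarcinoma and of mixed C57/B6-129SvJae background, were each profiled on 2 arrays. On 1 array of a line the RNA came from cells given 4-OH tamoxifen, the active metabolite of tamoxifen, at 250 nM in ethanol 24 h before collection. On the other it came from cells given ethanol. Per the labels the drug brings back p53 expression in these cells, so all 6 arrays come from cells made to carry a p53 that the drug can restore, and the ethanol arrays are those without restored p53. Every combination of line and treatment was measured on 1 array, and nothing in the labels says whether a line is 1 clone or whether its cultures were grown separately, so p-values measure only the spread between these arrays, which may be technical. In such bulk RNA, fewer cells of a type and less RNA per cell cannot be told apart.

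Tight junctions seal the space between neighbouring epithelial cells. Claudins are the membrane proteins that form their strands and decide which ions pass: some, such as claudin 2 and claudin 15, form pores for cations, and others seal the barrier. Occludin is a further membrane protein of the strands, and ZO-1 is the cytoplasmic scaffold that binds claudins and ties them to actin. Repressors of epithelial genes such as Snail and ZEB1 bind E-box sequences and are known to act on claudin and occludin promoters.

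Values are log2 expression, on which a step of 1 is a doubling, and a level says nothing between different genes, since probes differ in brightness. On each array 57.3 to 57.6% of probe sets were at log2 4 or above, and the 27 probe sets for bacterial control transcripts lay between 1.13 and 2.84, which shows the background level. The drug acted in each line: the p53 target genes Cdkn1a, which encodes p21, and Mdm2 rose by 3.50 to 5.62 and by 2.70 to 3.12 on the log2 scale, and so did its targets Phlda3 (3.35 on average) and Ccng1 (2.86). The 8 epithelial markers averaged between 10.97 and 11.57 on the 6 arrays. Of these, Muc1 and Krt19 were highest in KPR4 (ranges between line means of 2.29 and 1.47), Epcam was lowest there, and Dsp, which encodes desmoplakin, rose with the drug by 0.52 ± 0.15 (limma, adjusted p = 0.0272), a call that ended without KPR5 (0.26, adjusted p = 0.275) and without KPR8 (0.60, adjusted p = 0.0950). The 10 mesenchymal markers averaged between 6.72 and 6.85, and Vim, a filament protein, read 13.3 to 13.6. Col6a1 was highest in KPR4, S100a4 in KPR5 and Fn1 in KPR8, with ranges between line means of 2.01, 1.45 and 1.19. Nkx2-1, which marks the lung lineage, did not exceed 2.83 and was thus at background. Of 7 leukocyte markers, which averaged between 3.33 and 3.92, Ptprc, Lyz2 and Itgam were never above the bacterial controls, but Cd14 read 6.42 to 9.23 and was highest in KPR4, Cd3e was above the controls on 6 of 6 arrays, and Cd68 rose with the drug in 3 of 3 lines by 1.02 ± 0.15 (limma, adjusted p = 0.00031). Cd68 read 3.41 to 3.76 with ethanol and 4.32 to 4.83 with the drug. It passed the filter on low values only through the drug arrays, so its rise is in part a condition of being tested. With no filter its adjusted p was 0.00047 (limma). Of 7 endothelial markers, which averaged between 2.78 and 2.98, Cdh5, Tie1, Vwf and Cldn5 were never above the controls, and Pecam1 and Kdr were above them on 6 of 6 arrays at no more than 3.43 and 4.01. The 7 fibroblast markers averaged between 3.92 and 4.29, and Thy1 was never above the controls. But Col1a1 read 5.41 to 7.73, Col1a2 4.51 to 5.59, Pdgfra 3.82 to 4.99 and Col3a1 3.69 to 4.32. Dcn was above the controls on 6 of 6 arrays and Lum on 5, at no more than 3.91 and 3.46. Col1a1 and Col1a2 were highest in KPR4 and Pdgfra in KPR5, with ranges between line means of 1.97, 0.94 and 1.14. Pdgfra passed the filter on low values through KPR5 and 1 array of KPR8, so its difference is in part a condition of being tested. The part of these markers in the results was not tested. For Gapdh, the gap between the log2 signals at the ends of the transcript, a sign of RNA integrity, was 0.55 to 1.06 and was lowest in treated KPR8. For beta-actin the gap was wider, at 1.34 to 1.74, and was lowest in KPR5 with ethanol and highest in treated KPR5. The part of RNA integrity in the results was not tested.

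The promoters of the members that differ most are shown first, because levels of factors known to bind such sequences are given further on. They are RefSeq windows of 300 bases on GRCm38.p6, from 250 bases before to 50 after the annotated start, and RefSeq gave at least 1 for each of the 10 genes. In capitals stand the E-box letters CAGGTG, searched on both strands (CACCTG is the same site on the other strand), and, in Cldn2 alone, the core TTTATG of sites for CDX factors, searched on both strands, and the TATA box TATAAA, searched on the printed strand. Cldn2 lies at chrX:139800558-139800857 (+), Cldn3 at chr5:134985964-134986263 (+), Cldn4 at chr5:134946885-134947184 (-), Cldn6 at chr17:23679115-23679414 (+) and the second annotated window of Cldn7 at chr11:69965171-69965470 (+).
Cldn2: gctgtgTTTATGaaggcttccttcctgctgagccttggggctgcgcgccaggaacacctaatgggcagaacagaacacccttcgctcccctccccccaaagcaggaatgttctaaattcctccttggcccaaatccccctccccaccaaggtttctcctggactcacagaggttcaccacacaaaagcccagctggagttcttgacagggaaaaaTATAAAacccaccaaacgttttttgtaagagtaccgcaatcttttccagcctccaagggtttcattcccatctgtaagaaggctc
Cldn3: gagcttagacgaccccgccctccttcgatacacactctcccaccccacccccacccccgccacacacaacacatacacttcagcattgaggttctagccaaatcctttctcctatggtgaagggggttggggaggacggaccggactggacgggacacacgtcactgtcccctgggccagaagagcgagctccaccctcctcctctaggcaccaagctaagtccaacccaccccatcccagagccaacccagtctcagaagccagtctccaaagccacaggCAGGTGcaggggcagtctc
Cldn4: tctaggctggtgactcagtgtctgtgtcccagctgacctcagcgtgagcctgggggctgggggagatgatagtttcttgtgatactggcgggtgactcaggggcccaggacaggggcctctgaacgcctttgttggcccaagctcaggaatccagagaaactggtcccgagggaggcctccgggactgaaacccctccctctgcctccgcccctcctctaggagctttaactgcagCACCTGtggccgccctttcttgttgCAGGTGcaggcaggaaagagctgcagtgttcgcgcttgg
Cldn6: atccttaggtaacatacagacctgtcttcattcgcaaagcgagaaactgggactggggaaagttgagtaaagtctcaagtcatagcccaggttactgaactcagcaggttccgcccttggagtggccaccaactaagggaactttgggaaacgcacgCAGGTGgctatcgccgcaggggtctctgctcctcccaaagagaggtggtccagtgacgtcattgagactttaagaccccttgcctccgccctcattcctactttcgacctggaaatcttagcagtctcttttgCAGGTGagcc
Cldn7: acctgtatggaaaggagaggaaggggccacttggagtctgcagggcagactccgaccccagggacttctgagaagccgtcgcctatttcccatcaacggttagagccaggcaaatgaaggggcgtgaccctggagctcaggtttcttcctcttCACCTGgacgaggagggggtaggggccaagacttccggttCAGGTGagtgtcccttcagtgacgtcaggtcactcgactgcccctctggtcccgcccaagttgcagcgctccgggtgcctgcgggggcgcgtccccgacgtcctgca

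The E-box occurred in 20.2% of 32851 such promoters. Cldn3 held 1, at 32 to 37 bases from the start, counted from 1 at the start itself. Cldn4 held 2, at -14 to -9 and at 12 to 17, on either side of the start. Cldn6 held 2, at -93 to -88 and at 41 to 46, and the printed window of Cldn7 held 2, at -97 to -92 and at -57 to -52, while its other window held none. Both windows of Ocln had at least 1. The letters were not in the windows of Cldn1, Cldn2, Cldn12, Cldn15 or Tjp1. Cldn2 had the CDX core at -244 to -239, as 11.9% of promoters did in some place, and a TATA box at -35 to -30, as did 8.32%. The core CAAAGTCCA of HNF4 sites and the palindromic HNF1 site, searched on both strands, were in none of the members' windows, and in 0.475% and 0.00913% of all promoters. A full p53 site, was in none of these windows and in 0.0731% of all promoters. A single p53 decamer, one arm of the full site, lay in the Tjp1 window and in 8.36% of all. A match of letters is not a bound site, and these windows leave out enhancers and introns. On the same assembly Cldn3 and Cldn4 are next to each other with no protein-coding gene between them, Cldn6 is next to Cldn9, and Ocln is next to Marveld2, which encodes tricellulin.

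KPR4 differed from the other lines by a high Cldn2 and by low Cldn3, Cldn4, Cldn7 and Ocln, and KPR8 by a low Cldn6. Each of the 7 genes tested differed between lines in limma's F-test, where 42.0% of all genes did. The range between line means had a median of 1.84 over the 7, against 0.51 over all genes tested. These counts leave out Cldn1 and Cldn15, and Cldn2 passed the filter on low values through KPR4 and 1 array of KPR8, so that its difference is in part a condition of being tested. The 2 arrays of a line differ in treatment, so p-values for lines measure the spread left after a shared response is removed.

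**Figure D1:**
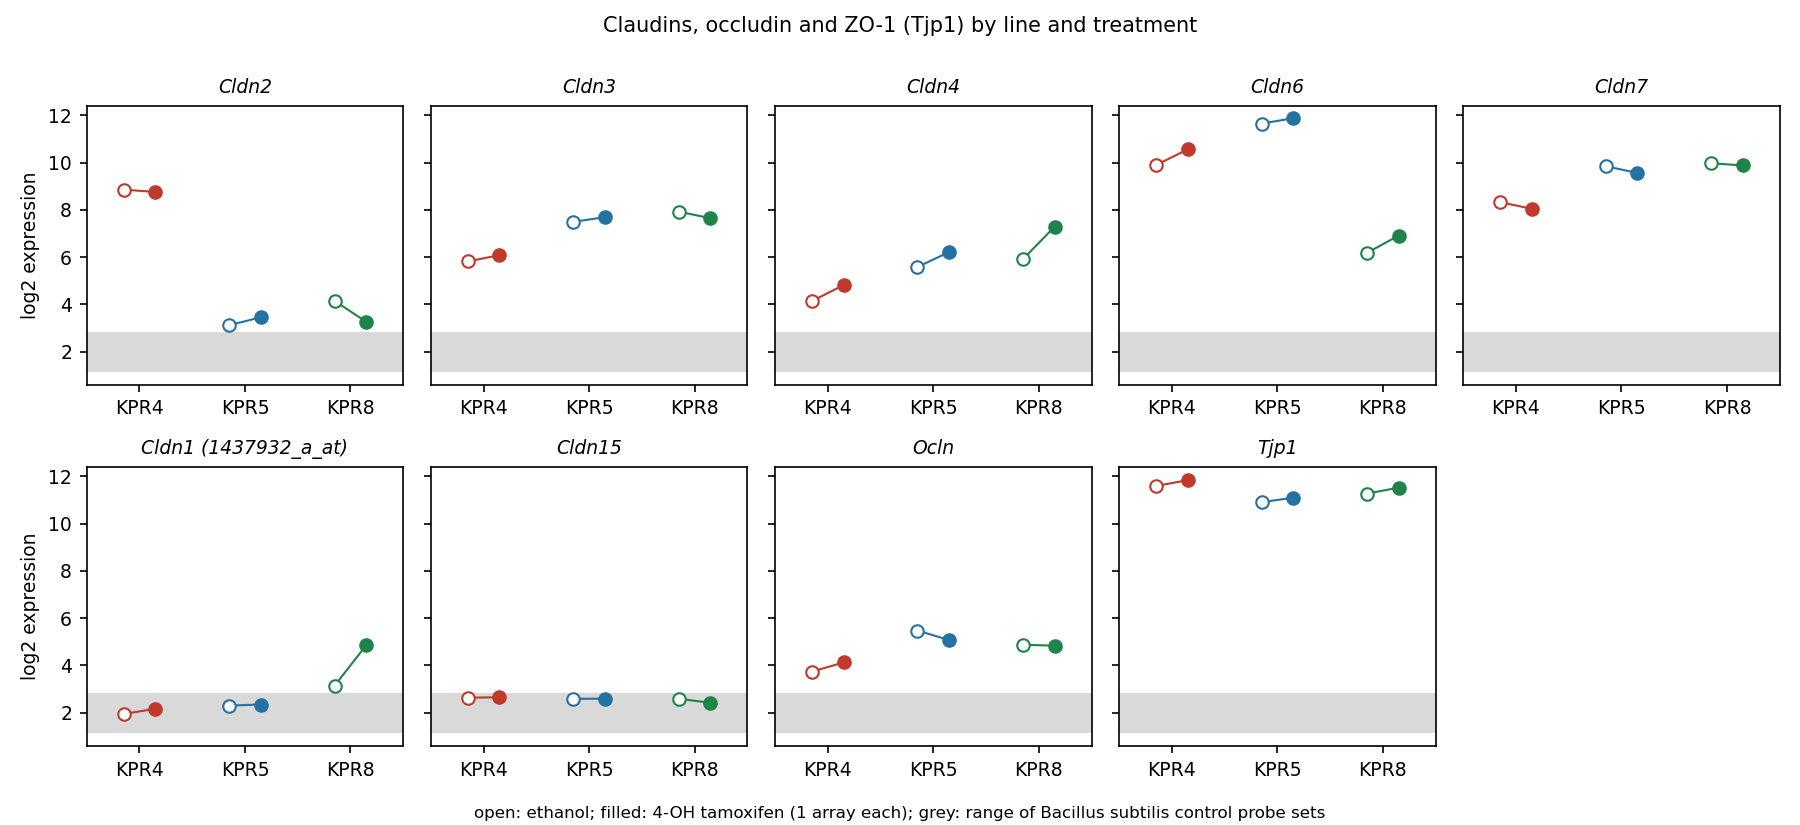
Log2 expression of 9 member genes in KPR4, KPR5 and KPR8 with ethanol (open) and 4-OH tamoxifen (filled), 1 array each; Cldn1 is shown by the probe set with its highest single value and the others by their brightest, and the grey band is the range of the bacterial controls. Cldn2 stands at 8.75 to 8.85 in KPR4 and at 3.11 to 4.14 elsewhere, Cldn6 is at 6.18 to 6.91 in KPR8 and at 9.89 or above in the other lines, and Cldn15 stays inside the grey band.

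Cldn2, the cation pore of leaky epithelia, read 8.85 with ethanol and 8.75 with the drug in KPR4. It read 3.11 and 3.45 in KPR5, and 4.14 and 3.26 in KPR8. The KPR4 arrays were far above the other 4, which lay between 3.11 and 4.14. KPR4 exceeded KPR5 by 5.52 ± 0.25 (SE; limma, adjusted p = 1.4e-09) and KPR8 by 5.10 ± 0.25 (adjusted p = 3.4e-09) on the log2 scale, or 45.9-fold and 34.4-fold, folds that are approximate so near background. KPR5 and KPR8 differed by -0.42 ± 0.25 (adjusted p = 0.248). A second, dim Cldn2 probe set was also highest in KPR4, at 3.94 and 3.09, against at most 2.73 in the others, which is inside the range of the bacterial controls.

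Cldn3, Cldn4 and Cldn7 are claudins of barrier-forming epithelia, and all 3 were lowest in KPR4. Cldn3 read 5.82 and 6.08 in KPR4 (ethanol, then drug), 7.49 and 7.69 in KPR5, and 7.92 and 7.65 in KPR8. Both KPR4 arrays lay below the other 4, which overlapped. KPR4 was lower than KPR5 by 1.64 on the log2 scale (difference -1.64 ± 0.21, adjusted p = 5.6e-05) and the difference from KPR8 was -1.84 ± 0.21 (adjusted p = 2.0e-05), or 3.12-fold and 3.57-fold. Cldn3 is covered by 4 probe sets, of which 2 are marked by their names as able to bind other transcripts. On each of the 4 KPR4 was the lowest line, with differences from KPR5 of -1.20 to -1.64 when every probe set was tested without a filter.

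Cldn7 read 8.32 and 8.04 in KPR4, 9.85 and 9.56 in KPR5, and 9.97 and 9.88 in KPR8. The KPR4 arrays were again below all others, by -1.52 ± 0.16 against KPR5 (adjusted p = 1.2e-05) and -1.74 ± 0.16 against KPR8 (adjusted p = 3.2e-06). Between KPR5 and KPR8 the differences were -0.19 ± 0.21 for Cldn3 (adjusted p = 0.534) and -0.22 ± 0.16 for Cldn7 (adjusted p = 0.353), so no order between those lines was shown.

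Cldn4, a receptor for Clostridium perfringens enterotoxin as is claudin 3, read 4.13 and 4.81 in KPR4, 5.58 and 6.21 in KPR5, and 5.91 and 7.28 in KPR8. With either treatment KPR4 was lowest and KPR8 highest, and the arrays of KPR5 and KPR8 overlapped across treatments. The differences were -1.42 ± 0.23 for KPR4 minus KPR5 (adjusted p = 0.00038), -2.12 ± 0.23 for KPR4 minus KPR8 (adjusted p = 1.0e-05) and -0.70 ± 0.23 for KPR5 minus KPR8 (adjusted p = 0.0332). The last call ended when every probe set was tested without a filter (adjusted p = 0.0565). With the treatment term left out, none of the 3 passed (adjusted p = 0.164, 0.0664 and 0.454).

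Cldn6, a claudin of embryonic epithelia that is low in most adult tissues, had another order. It read 11.65 and 11.88 in KPR5, 9.89 and 10.55 in KPR4, and 6.18 and 6.91 in KPR8. The 3 lines did not overlap. KPR5 exceeded KPR8 by 5.22 ± 0.17 (adjusted p = 4.0e-11), a 37.2-fold difference, and KPR4 exceeded KPR8 by 3.68 ± 0.17 (adjusted p = 1.9e-09), or 12.8-fold. KPR4 minus KPR5 was -1.54 ± 0.17 (adjusted p = 1.8e-05), or adjusted p = 0.0513 without the treatment term. Cldn9, the gene next to it, read between 2.66 and 2.80 on the 6 arrays and was never above the bacterial controls.

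Ocln read 3.74 and 4.13 in KPR4, 5.48 and 5.08 in KPR5, and 4.88 and 4.84 in KPR8. As for Cldn3, Cldn4 and Cldn7, the KPR4 arrays were the lowest, with differences of -1.34 ± 0.21 from KPR5 (adjusted p = 0.00040) and -0.92 ± 0.21 from KPR8 (adjusted p = 0.0059). The KPR8 difference did not pass without the treatment term (adjusted p = 0.0758). KPR5 and KPR8 differed by 0.42 ± 0.21 (adjusted p = 0.165). Marveld2, a relative of occludin at contacts of several cells and its genomic neighbour, lay between 7.06 and 7.58 on the arrays.

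Tjp1 varied least and in the other direction. It read 11.59 and 11.84 in KPR4, 10.91 and 11.10 in KPR5, and 11.27 and 11.52 in KPR8. The arrays of the 3 lines did not overlap, although the lines lay close together. KPR4 exceeded KPR5 by 0.71 ± 0.12 (adjusted p = 0.00078), and KPR5 minus KPR8 was -0.40 ± 0.12 (adjusted p = 0.0297). That last call ended without KPR4 in the fit, where the difference was also -0.40 and the adjusted p was 0.0760, and without the trend of variance on level (adjusted p = 0.110). Without the treatment term neither difference from KPR5 passed (adjusted p = 0.0722 for KPR4 and 0.247 for KPR8). KPR4 minus KPR8 was 0.32 ± 0.12 (adjusted p = 0.0720).

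**Figure D2:**
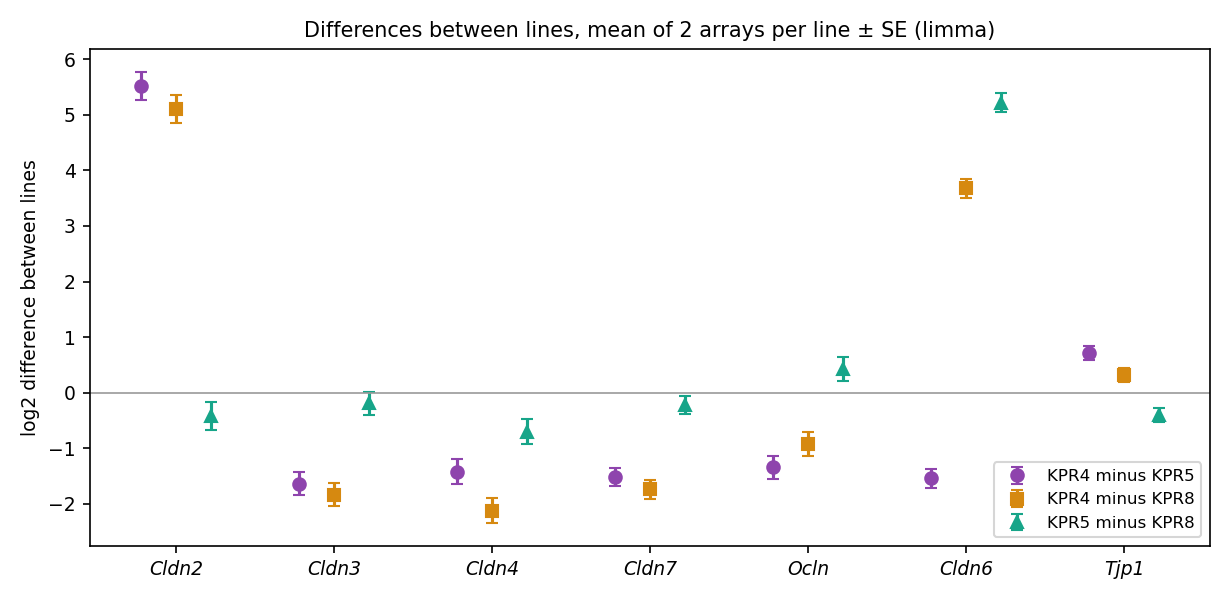
Log2 differences between pairs of lines for the 7 members tested, each line being the mean of its 2 arrays, with standard errors from the limma fit. Cldn3, Cldn4, Cldn7 and Ocln lie below 0 for both contrasts of KPR4 (-0.92 to -2.12), Cldn2 lies above 5 for both, and Cldn6 is above 0 for each contrast that subtracts KPR8.

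Counted over the pairs of lines, KPR4 was lower than KPR5 in 5 of the 7 genes and higher in 2, where 14.6% and 12.8% of all genes were. Against KPR8 it was lower in 4 and higher in 2, with 14.2% and 15.4% of all genes. KPR5 was higher than KPR8 in 1 gene, Cldn6, and lower in 2, Cldn4 and Tjp1, against 11.8% and 9.69% of all genes. Adjusted p-values for pairs are over all genes and the 3 pairs together.

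Cldn1 and Cldn15 were at or near background. Cldn15, the claudin pore of the intestine, has 1 probe set, which read 2.42 to 2.65 and was inside the range of the bacterial controls on all 6 arrays. Of the 4 Cldn1 probe sets, 3 read between 0.91 and 3.08. The fourth read 1.95 and 2.16 in KPR4 and 2.30 and 2.35 in KPR5, all inside the range of the controls, but 3.15 with ethanol and 4.86 with the drug in KPR8. Claudin 1 is a general barrier claudin of skin and many epithelia. The KPR8 signal rests on 1 of the 4 probe sets.

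Restoring p53 was accompanied by rises of Cldn4 and Cldn6, and no member passed the threshold downward. In limma's fit with a term for cell line, 2 of the 7 genes were higher with the drug, against 10.1% of all genes tested, and 0 were lower, against 8.49%. At an unadjusted p under 0.05 the counts were 3 and 0, with no share of all genes at that threshold to set beside them. The median change of the 7 was 0.06, against 0.00 over all genes. Response in a single line is a difference of 1 array from 1 other and has no test.

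Cldn4 rose from 4.13 to 4.81 in KPR4, from 5.58 to 6.21 in KPR5 and from 5.91 to 7.28 in KPR8. Each treated array was above the ethanol array of its own line, although the treatment groups overlapped because the lines start apart. The means were 5.21 ± 0.94 with ethanol and 6.10 ± 1.24 with the drug (SD, n = 3). The change was 0.89 ± 0.18 (SE; limma, adjusted p = 0.0036), 1.86-fold, and it was higher in 3 of 3 lines by 0.68, 0.63 and 1.37. Without KPR8, whose rise was the largest, the change was 0.66 and the adjusted p 0.0486.

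Cldn6 went from 9.89 to 10.55 in KPR4, from 11.65 to 11.88 in KPR5 and from 6.18 to 6.91 in KPR8. The gains were thus 0.66, 0.23 and 0.73, with every treated array above its own ethanol array. The means were 9.24 ± 2.79 with ethanol and 9.78 ± 2.57 with the drug (SD, n = 3), a spread that belongs to the lines. The change was 0.54 ± 0.14 (SE; adjusted p = 0.0161), 1.46-fold. With KPR4 left out the value was 0.48 (adjusted p = 0.117) and with KPR8 left out 0.45 (adjusted p = 0.0672), neither of which passed, while with KPR5 left out it was 0.70 (adjusted p = 0.0187). Without the line term neither gene passed the threshold, with adjusted p = 0.746 for Cldn4 and 0.966 for Cldn6.

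Tjp1 changed by 0.25, 0.19 and 0.25 in KPR4, KPR5 and KPR8, close to each other but small. The mean was 0.23 ± 0.10 (adjusted p = 0.131), which did not pass. Cldn7 had -0.28, -0.29 and -0.09, with a mean of -0.22 ± 0.13 (adjusted p = 0.280). For Cldn3 the change was 0.06 ± 0.17 (adjusted p = 0.843), for Ocln -0.02 ± 0.17 (adjusted p = 0.964) and for Cldn2 -0.22 ± 0.21 (adjusted p = 0.518). These last 3 genes moved in opposite directions in different lines. Cldn3 and Cldn4 are genomic neighbours, and only Cldn4 of the pair passed for treatment; the difference between their changes was not tested.

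**Figure D3:**
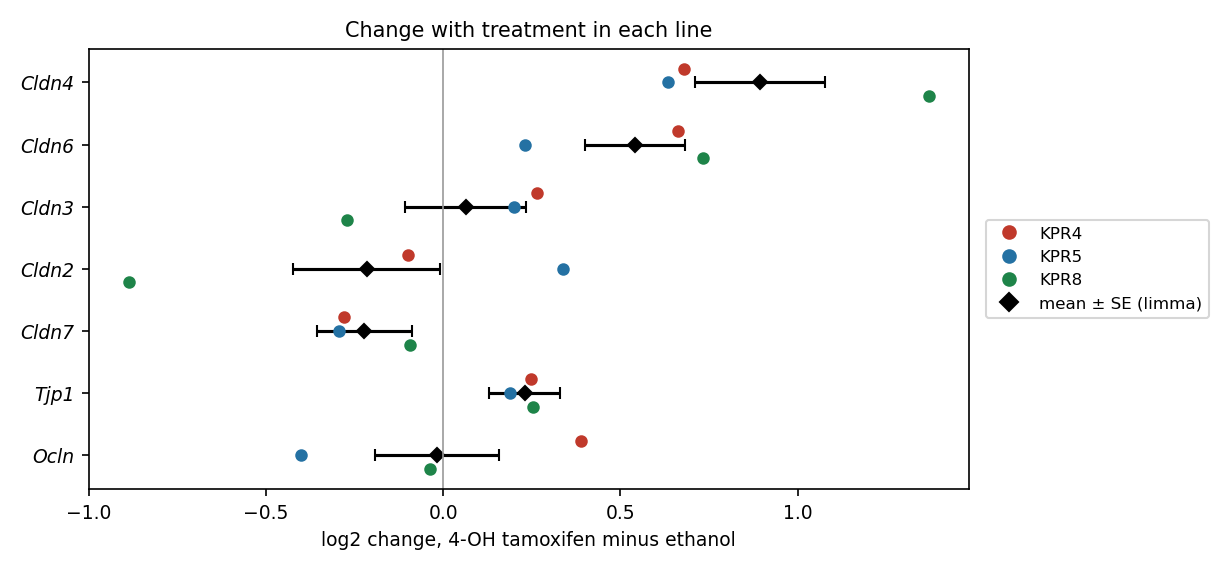
Log2 change from ethanol to 4-OH tamoxifen in KPR4, KPR5 and KPR8 (coloured points, 1 pair of arrays each) and the mean with its standard error from the limma fit (black) for the 7 members tested. All 3 points lie above 0 for Cldn4 (0.63 to 1.37), Cldn6 (0.23 to 0.73) and Tjp1 (0.19 to 0.25), and on both sides of 0 for Cldn3, Cldn2 and Ocln.

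The rest of the junction was followed in 5 lists with 87 further genes: other claudins, other membrane proteins, scaffolds and polarity proteins, proteins that process or bind claudins, and the adherens junction. Of the 57 tested, 9 rose and 2 fell with the drug. That is 19.3%, near the 18.6% of all genes tested that changed in either direction, and their median change was 0.11, against 0.00 over all genes. Between lines 27 of the 57 differed, 47.4% against 42.0% of all genes, and the median range between line means was 0.57 against 0.51. Both shares lie near those of all genes, but the share for treatment pools the directions. At an unadjusted p under 0.05 (limma) 17 of the 57 rose and 3 fell. The shares of all genes at that threshold are not given, so no excess can be read from these 2 counts. The adjusted counts of single lists that follow are to be read against the same shares, 10.1% higher, 8.49% lower and 42.0% different between lines. The unadjusted counts in brackets have no share of all genes to be read against.

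Among other claudins 0 of 6 tested genes rose or fell (1 in each direction at an unadjusted p under 0.05), and 4 differed between lines. Cldn18, the claudin of lung and stomach, read 9.93 and 10.08 in KPR4, 9.48 and 9.40 in KPR5, and 7.36 and 7.10 in KPR8. It was thus low in the line where Cldn6 was low, with KPR4 minus KPR8 at 2.77 and KPR5 minus KPR8 at 2.21. Cldn23 ran the other way, at 3.91 and 3.95 in KPR4, 4.47 and 5.26 in KPR5, and 5.67 and 5.97 in KPR8. Cldn34c1, the third by range, was higher in KPR8 than in KPR5 (KPR5 minus KPR8 was -0.99). It read 3.64 and 4.09 in KPR4, 3.72 and 3.60 in KPR5, and 4.90 and 4.40 in KPR8. It passed the filter on low values through KPR8 and 1 array of KPR4, so its difference is in part a condition of being tested.

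Of 7 tested membrane proteins other than claudins 2 rose and 0 fell (2 and 0 at an unadjusted p under 0.05). F11r, which encodes junctional adhesion molecule A, went from 7.88 to 8.53 in KPR4, from 8.32 to 8.91 in KPR5 and from 8.06 to 9.07 in KPR8. Its change was 0.74 ± 0.15 (adjusted p = 0.0035), and it passed with any 1 line left out. Jam2, a related adhesion molecule, rose by 0.37, 1.38 and 0.69, or 0.81 ± 0.19 (adjusted p = 0.0085), a call that ended without KPR5 (0.53, adjusted p = 0.0684) and without KPR8 (0.88, adjusted p = 0.0669). Jam2 also had the widest range between lines in this list, with KPR4 minus KPR5 at -2.06. Crb3, a polarity protein at the apical membrane, differed between KPR4 and KPR5 by -0.65 ± 0.19 and had a change of 0.23 ± 0.16 (adjusted p = 0.355).

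Of 24 tested scaffold and polarity genes 2 rose and 1 fell (4 and 1 at an unadjusted p under 0.05). Pard6g, of the PAR6 polarity proteins, rose by 1.11, 0.85 and 0.94, or 0.97 ± 0.16 (adjusted p = 0.00098). Dlg1, a basolateral scaffold, rose by 0.58 ± 0.13 (adjusted p = 0.0062), or by 0.25 on a dimmer probe set, and its adjusted p without KPR4 was 0.0504 (0.52). Mpdz, a scaffold with many PDZ domains that binds claudins, had -1.09, -0.37 and -0.21 in the lines in that order, with a mean of -0.56 ± 0.18 (adjusted p = 0.0497). Its call ended without KPR4 (-0.29, adjusted p = 0.483), without KPR5 (-0.65, adjusted p = 0.0725) and without KPR8 (-0.73, adjusted p = 0.0656). Between lines the widest range in the list was that of Tjp3, which encodes ZO-3: it read 4.97 and 4.84 in KPR4 and 3.03 to 3.44 in the other lines. Tjp3 thus passed the filter on low values only through KPR4, so its difference is in part a condition of being tested.

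Of 11 tested genes that process or bind claudins 2 rose and 1 fell (6 and 1 at an unadjusted p under 0.05). Cd81, a tetraspanin, rose in each line by 0.84 to 0.99, or 0.90 ± 0.09 (adjusted p = 1.3e-05). St14, the protease matriptase, rose by 1.46 in KPR4 and 0.75 in KPR5 and was at -0.06 in KPR8, with a mean of 0.72 ± 0.23 (adjusted p = 0.0431) that did not hold without KPR4 (0.35, adjusted p = 0.398) or without KPR5 (0.70, adjusted p = 0.106). Epcam, an adhesion protein that binds claudin 7 and keeps it from being degraded, changed by -0.46, -0.31 and -0.35, with a mean of -0.37 ± 0.12 (adjusted p = 0.0484). Its adjusted p was 0.0911 to 0.257 with 1 line left out. Like Cldn7, Epcam was lowest in KPR4. It read 9.35 and 8.89 in KPR4, 10.75 and 10.44 in KPR5, and 10.40 and 10.05 in KPR8. For Epcam, KPR5 minus KPR8 was 0.37 ± 0.15 (limma, adjusted p = 0.0835), so no order between those lines was shown. Wnk4, a kinase that phosphorylates claudins, read 5.71 and 5.76 in KPR4 and 3.44 to 3.88 in the others. Like Tjp3, Wnk4 passed the filter only through KPR4, so the line calls of both are in part a condition of being tested.

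In the adherens junction 3 of 9 tested genes rose and 0 fell (4 and 0 at an unadjusted p under 0.05). Ctnnd1, which encodes p120 catenin, rose by 0.71 ± 0.14 (adjusted p = 0.0027). Jup, which encodes plakoglobin, rose by 0.51 ± 0.14 (adjusted p = 0.0188), a call that ended without KPR5 (0.53, adjusted p = 0.0586) and without KPR8 (0.41, adjusted p = 0.0843). Cdh1, E-cadherin, went from 12.20 to 12.40, 11.75 to 11.96 and 11.67 to 12.18, or 0.30 ± 0.10 (adjusted p = 0.0474). Its call ended without KPR4 (0.35, adjusted p = 0.113), without KPR5 (0.35, adjusted p = 0.0735) and without KPR8 (0.20, adjusted p = 0.160), and with each array centred on its median (0.29, adjusted p = 0.0596) or quantile normalization (0.27, adjusted p = 0.0893). Cdh1 was higher in KPR4 than in KPR5 by 0.45 ± 0.12, against the order of Cldn3, Cldn4 and Cldn7. By range between lines the list was led by Nectin3 (2.30), Cdh2 (1.28) and Nectin2 (0.88).

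**Figure D4:**
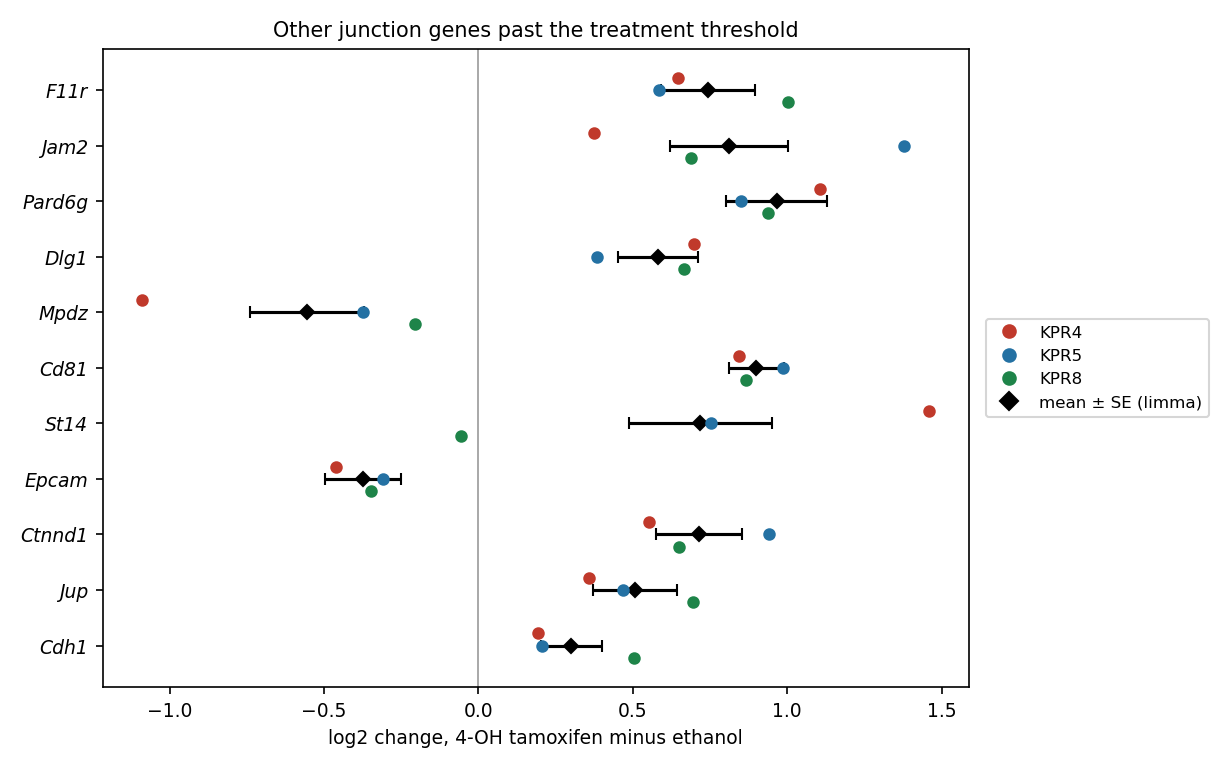
Log2 change from ethanol to 4-OH tamoxifen in each line (coloured points) and the mean with its standard error (black) for the 11 further junction genes past the treatment threshold. The 9 that rose have means of 0.30 to 0.97, Mpdz and Epcam have -0.56 and -0.37, and St14 is at 1.46 in KPR4 but at -0.06 in KPR8.

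Of 18 tested transcription factors and splicing factors known to act on junction or epithelial genes, 12 differed between lines, where 42.0% of all genes did. With the drug 2 fell, against 8.49% of all genes, and 0 rose, against 10.1% (3 and 0 at an unadjusted p under 0.05). Zeb1, the E-box repressor, read 9.46 and 9.39 in KPR4, 7.12 and 7.01 in KPR5, and 7.70 and 7.35 in KPR8. It was thus highest in the line where Cldn3, Cldn4, Cldn7 and Ocln, which hold the E-box letters in the windows shown or named above, were lowest, by 2.36 ± 0.19 over KPR5 and 1.90 ± 0.19 over KPR8. Cldn6 also holds the letters and was lowest in KPR8. Snai2, another E-box repressor, was lowest in KPR4, at 4.12 and 4.38 against 4.94 to 5.06 in the others, and Twist1 was highest in KPR8, at 6.77 and 6.49. Snai1 did not exceed 2.55 and was at background.

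Hnf4a and Cdx2, factors of liver and gut epithelium, were highest in KPR4 together with Cldn2, whose window holds the CDX core but not the HNF4 or HNF1 letters. Hnf4a read 12.39 and 12.51 in KPR4, 7.40 and 7.87 in KPR5, and 5.72 and 5.55 in KPR8. Cdx2 read 10.37 and 9.51, 5.61 and 4.86, and 7.13 and 6.47. Cdx2 fell with the drug by 0.76 on the log2 scale (-0.76 ± 0.16, adjusted p = 0.0040) in 3 of 3 lines, while Cldn2 had -0.10, 0.34 and -0.89. The other factor that fell was Tcf3, an E-box binding protein (-0.51 ± 0.16, adjusted p = 0.0407). Its call ended without KPR4 (-0.52, adjusted p = 0.111) and without KPR8 (-0.40, adjusted p = 0.174). Zeb1 changed by -0.18 ± 0.15 (adjusted p = 0.467) and Snai2 by 0.14 ± 0.16 (adjusted p = 0.594). The part of any of these factors in the levels of the claudins was not tested.

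**Figure D5:**
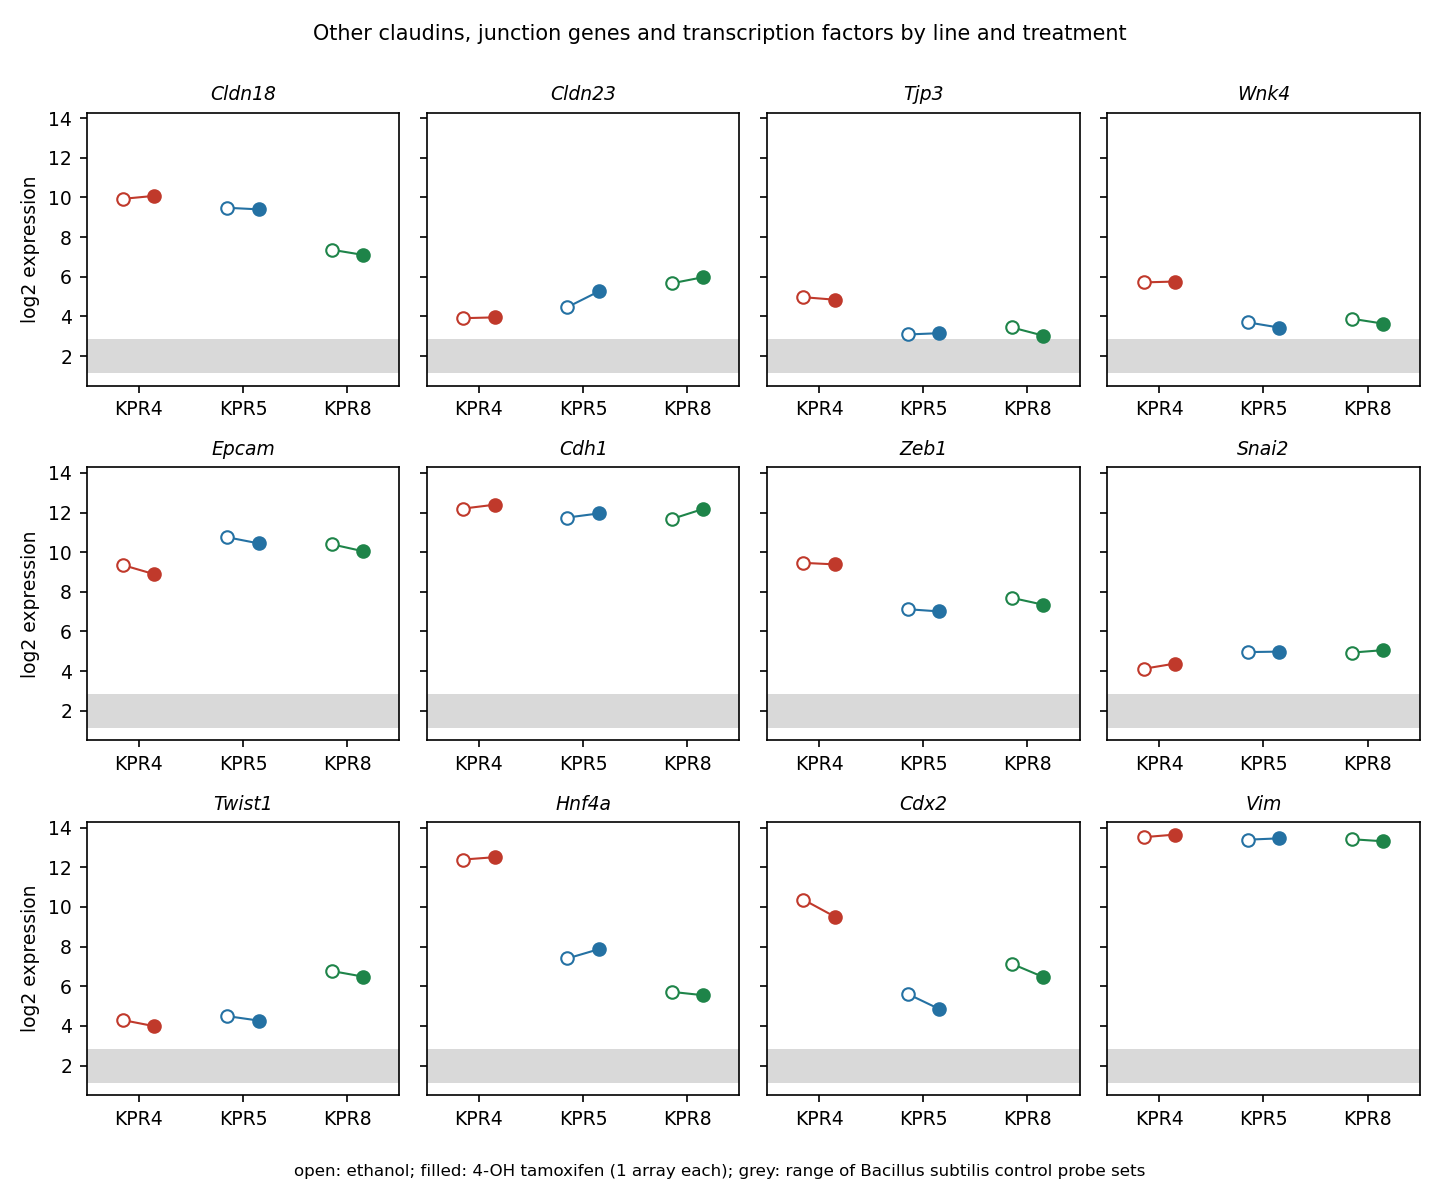
Log2 expression of 12 further genes in each line with ethanol (open) and 4-OH tamoxifen (filled), 1 array each, with the range of the bacterial controls in grey. Zeb1 (9.39 to 9.46), Hnf4a (12.39 to 12.51), Cdx2 (9.51 to 10.37), Tjp3 (4.84 to 4.97) and Wnk4 (5.71 to 5.76) are highest in KPR4, Epcam (8.89 to 9.35) and Snai2 (4.12 to 4.38) are lowest there, and Cldn18 (7.10 to 7.36) is lowest in KPR8.

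Genes with the pattern most like that of a member were looked up for Cldn2 and Cldn6, which had the widest ranges over the 6 arrays, 5.74 and 5.70. Likeness was Pearson's correlation over the 6 arrays among 3040 other genes with a range of at least 1, and it is a description, since the 2 arrays of a line go together and 124 genes exceeded 0.95 for Cldn2. The highest for Cldn2 were Tjp3 (0.998), Rbp4 (0.997) and Myrf (0.997). Tjp3 encodes the scaffold ZO-3 named above, and like Myrf it passed the filter on low values only through KPR4. Rbp4, the plasma carrier of retinol, read 9.23 and 8.83 in KPR4 and 4.29 to 5.19 in the other lines. For Cldn6, where 24 genes exceeded 0.95, they were Ifi30 (0.998), Lratd1 (0.992) and Decr1 (0.987). Ifi30, a lysosomal thiol reductase, read 8.84 and 8.90 in KPR5, 8.37 and 8.53 in KPR4, and 7.59 and 7.73 in KPR8.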

How the data were processed

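Expression was measured on 6 arrays. The deposited table holds log2 values, 1 per probe set; the submitters' processing notes name GCRMA 2.20.0 and R 2.11.0 as the authors' tools. GCRMA models background from probe sequence and equalises arrays, so a shift common to most of the genes would be lost. The sources used here do not say if other arrays were processed with them. Array medians were 4.56 to 4.63. The 20380 probe sets with 1 symbol in GEO's platform annotation were used. To be tested, a probe set had to reach log2 4 on 2 or more arrays, 2 being the arrays of 1 line, and the brightest by mean stood for its gene. limma 3.58.1 in R 4.3.3 fitted cell line and treatment with a variance trend over 7906 genes (2 residual and 12.2 prior degrees of freedom). Its 2-sided p-values were adjusted by Benjamini-Hochberg, and those under 0.05 passed. Fits were tested on simulated data. Arrays of the same line are pairs by design; their deviations from treatment means correlated across genes at 0.890, 0.757 and 0.776 in KPR4, KPR5 and KPR8. Lines are the replicates for treatment. The number of arrays limits the precision.

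All members are named. From each further list the 3 largest treatment changes and the 3 widest line ranges among genes that passed are named, with Cdh1, Epcam, Vim, Zeb1, Snai2 and p53 target genes whatever their values. Other genes named were chosen after their values were seen. Members and lists were chosen with earlier results of these data known. Alternatives were the filter, the treatment of probe sets, the moderation, the scaling, the line and treatment terms and leaving out a line.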

Additional observations from a re-analysis of the deposited data

Results flagged for a closer look

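Cldn2, Cldn3 and Ocln moved in opposite directions in different lines, by more than 0.263, the median size of a change in 1 line over all genes tested. With 1 array per line and treatment the difference between lines was not tested. Cldn2 changed by 0.34 in KPR5 and by -0.89 in KPR8, both from levels not far above background. Cldn3 changed by 0.26 in KPR4 and by -0.27 in KPR8 on its brightest probe set, whereas its dimmest one had -0.44 and -0.16 in those lines. Ocln changed by 0.39 in KPR4 and by -0.40 in KPR5.

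A signal appeared in a probe set that fell below the filter: 1 of the 4 Cldn1 probe sets read 4.86 in KPR8 with the drug, where the highest of the 3 ethanol arrays read 3.15. It was tested only in the limma fit of every probe set with no filter. There KPR4 minus KPR8 was -1.95 ± 0.30 (adjusted p = 0.0013) and KPR5 minus KPR8 was -1.68 ± 0.30 (adjusted p = 0.0033). The probe set was picked for its high KPR8 value, so these p-values are no support for a difference. On the brightest Cldn1 probe set the same differences were -0.10 ± 0.13 (adjusted p = 0.691) and -0.17 ± 0.13 (adjusted p = 0.460). The change of the picked probe set with the drug, 0.66 ± 0.24, did not pass (adjusted p = 0.131).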

How the results depend on the processing

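Over 15 alternative settings, 1 of which (every probe set with no filter) was chosen after seeing the data, no member call reversed: of 97 values of member treatment changes 4 lost a call (Cldn4 and Cldn6 without the line term, Cldn6 without KPR4 and without KPR8), and of 251 values of line differences 10 did. Leaving out a cell line left 964 to 1013 genes changed with treatment (1470 with all lines), 526 to 600 higher and 413 to 444 lower, with 1 to 2 members higher. It left 1560 to 2562 genes and 2 to 7 members that differed between lines; without KPR4 only KPR5 and KPR8 are compared. Each such fit has 1 residual degree of freedom; prior degrees of freedom were 17.8 without KPR5 and 6.06 without KPR8, and without KPR4 they were infinite, so that limma took the spread of every gene from the trend alone and those p-values do not reflect a gene's own spread. Paired analysis mattered: without the replicate block by line, 20 genes changed, 20 higher and 0 lower (405 and 381 at an unadjusted p under 0.05), and 0 members (0 unadjusted). Without the treatment term 585 genes differed between lines, and 413, 517 and 166 for KPR4 minus KPR5, KPR4 minus KPR8 and KPR5 minus KPR8, since the response then counts as error. The calls of Mpdz, St14, Epcam, Cdh1, Dsp and Tcf3 also ended with no filter. Scaling moved the median change by at most 0.01.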

Other observations

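Of the other claudins with a probe set, 7 did not pass the filter. Cldn5 of endothelium, Cldn9, Cldn11, Cldn13 and Cldn19 were never above the bacterial controls, and Cldn10 and Cldn14 did not exceed 3.59 and 3.33. Among the 6 that passed, Cldn8, a claudin of kidney and gut, read 5.54 and 5.25 in KPR8 and 4.18 to 4.80 in the other lines. Cldn16, the genomic neighbour of Cldn1, lay between 4.46 and 4.95.

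Grhl2, Esrp1, Esrp2 and Klf5, named after their values were seen, are epithelial regulators. Grhl2 read 8.10 and 8.22 in KPR4, 9.51 and 9.54 in KPR5, and 9.12 and 9.17 in KPR8. Esrp1, a splicing factor of epithelia, read 9.30 and 8.87, 10.53 and 9.89, and 10.27 and 10.24. Both were lowest in KPR4, as were Cldn3, Cldn4, Cldn7 and Ocln. Esrp2 and Klf5 ran the other way, with Esrp2 at 9.97 and 10.09 in KPR4 against 9.27 to 9.55 in the others, and Klf5 at 8.75 and 8.55 against 7.09 to 7.74. Cxadr, a virus receptor at tight junctions and also named after its values were seen, went from 7.76 to 7.19 in KPR4, from 7.85 to 7.01 in KPR5 and from 7.35 to 8.04 in KPR8.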
